A study of Danio rerio with 2 samples.

Results

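The genes of MHC class II antigen presentation were examined in sorted EGFP+ cells of the Tg(cd8a:EGFP) zebrafish line, to ask whether the EGFP+ myeloid cells of melanoma carried an antigen-presentation program beside the EGFP+ lymphocytes of the thymus. The set was given as 9 gene symbols, *cd74a*, *cd74b*, *mhc2a*, *mhc2dab*, *ciita*, *rfx5*, *rfxap*, *cd40* and *cd83*. Of these, 8 matched 1 gene each among the 32520 Ensembl genes counted, while no gene carried the symbol *mhc2a*, which was therefore not analysed here. The 8 genes were matched by name, and the set was chosen with earlier results of these data known. They are followed by the other genes named as class II chains and by lists of genes that act with them.

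Bulk RNA-seq was available for 2 libraries, 1 per group. The thymus lymphocytes came from fish labelled as 6 weeks post fertilization, without treatment, and the labels give the sorted cells as lck:mCherry+ and CD8:EGFP+. The paper's methods name the line Tg(cd8a:EGFP) alone and a slightly later age. The myeloid cells, which the labels also call CD8 dendritic cells, were EGFP+ cells from melanoma of fish that carried cd8a:EGFP and BRAF V600E and were null for p53 and nacre. They were labelled with the same age of 6 weeks and with SB431542, an inhibitor of TGF-β receptors, for 24 h. In both groups EGFP was driven by sequence upstream of *cd8a*, which marks cells with an active *cd8a* promoter and does not by itself name a cell type. The tumors arose where an injected MiniCoopR vector gave back the pigment cell factor *mitfa*, together with mCherry, in fish that otherwise lack melanocytes. Tissue, cell type, genotype and drug exposure therefore differed together and cannot be told apart. How many fish were pooled for a library is not given in the sources used here.

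MHC class II molecules are pairs of an α and a β chain that show peptides from endosomes to CD4+ T cells. The invariant chain CD74 escorts new pairs to the endosome and blocks their groove, and endosomal proteases then cut it away. Transcription of class II and invariant chain genes depends on CIITA, a coactivator that binds no DNA itself but docks on the RFX complex (RFX5, RFXAP and RFXANK), NF-Y and CREB at the promoter. In mammals B cells, dendritic cells, macrophages and thymic epithelium use this program without induction, interferon γ induces it elsewhere, and activated T cells of humans also carry class II. CD40 is the receptor through which antigen-presenting cells receive help, and CD83 is found on those that have matured.

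Each library was counted as reads on genes, 32975680 in the lymphocyte library and 39446435 in the myeloid library. Values are counts per 1000000 reads on genes (CPM), which are not scaled for transcript length, so that a gene is compared with itself between libraries and not with another gene. Intervals in parentheses are 95% intervals for counting error only, because PCR copies of 1 molecule were each counted. For a gene with 0 reads the upper limit was set at 3 reads, 0.0910 CPM among lymphocytes and 0.0761 CPM among myeloid cells. The 95% Wilson limits for 0 reads are higher, at 0.116 and 0.0974 CPM. A fold given as "at least" is therefore a bound against 3 reads and not a 95% limit. With 1 library per group there was no replicate check, no test between the conditions was possible, and every difference compares these libraries only. A difference was called when the CPM differed at least 4-fold, among genes that reached 1 CPM in at least 1 of the libraries. The myeloid library was the deeper one, yet 13405 genes were without reads in it and 9972 in the other. In RNA from pooled cells, fewer cells of a type and less RNA per cell cannot be told apart.

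The class II presentation genes were found mainly in the lymphocyte library. Of the 8 genes, 6 were at 1 CPM or more there, against 3 in the myeloid library, where over all genes 39.8% and 33.0% reached that level. All 6 genes that could be compared were at least 4-fold lower in the myeloid library, and 0 were higher. Of all 15139 genes compared, 39.2% were lower by this rule and 21.9% were higher. The genes are taken below by their role.

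**Figure D1:**
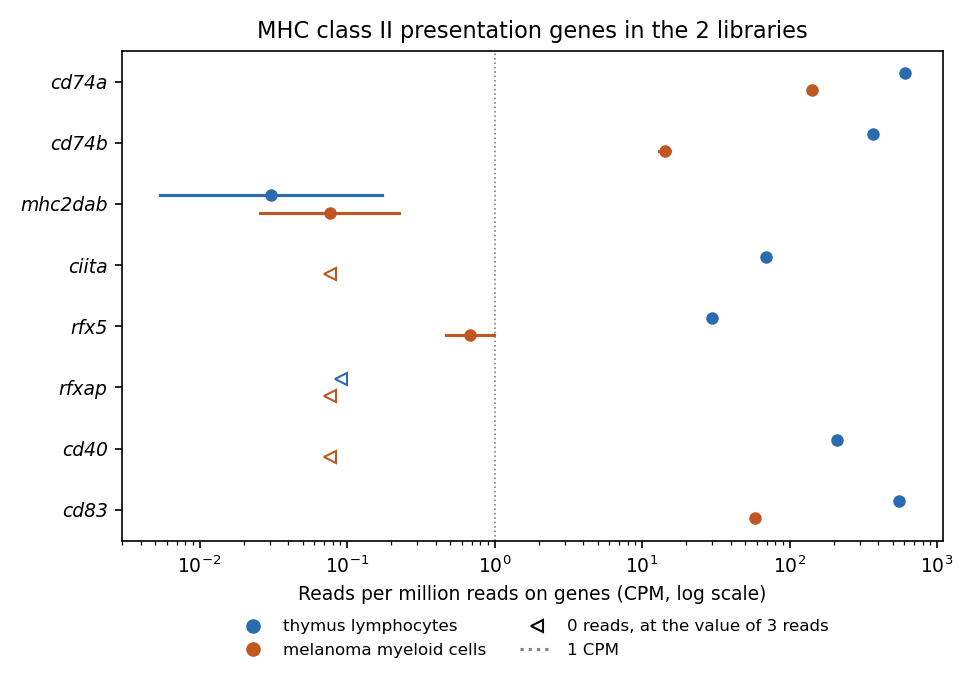
Level of the 8 class II presentation genes in the thymus lymphocytes (blue) and the melanoma myeloid cells (orange), in CPM on a log axis, with 95% counting intervals as lines; an open triangle marks a gene with 0 reads, drawn at the value of 3 reads. Each of the 6 genes at 1 CPM or more lies further right in the lymphocyte library, and *ciita* and *cd40* had 0 reads in the myeloid library.

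*ciita* (ENSDARG00000090851), the coactivator on which class II transcription depends, had 2282 reads in the lymphocyte library, or 69.2 CPM (66.4 to 72.1). In the myeloid library it had 0 reads, at least 910-fold lower when set at 3 reads. A count of 0 was uncommon at this level: of the 3345 genes at or above the thymus CPM of *ciita*, 2.78% had 0 myeloid reads and 7.26% had 3 or fewer.

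*rfx5* (ENSDARG00000063258), the DNA-binding subunit of the RFX complex, followed *ciita*. It had 982 reads in the lymphocyte library, or 29.8 CPM (28.0 to 31.7), and 27 reads in the myeloid library, or 0.684 CPM (0.470 to 0.996). The thymus level was 43.5-fold the myeloid level (29.7 to 66.4). *rfxap* (ENSDARG00000076891, listed as RFXAP), also of the complex, had 0 reads in both libraries. Whether its annotated gene model collects the reads of its transcripts was not tested. The remaining gene of the complex, *rfxank*, was present in both libraries. It had 575 reads or 17.4 CPM in the lymphocyte library and 383 reads or 9.71 CPM in the myeloid library.

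Both invariant chain genes were read in both libraries, and both were lower in the myeloid library, to different degrees. *cd74a* (ENSDARG00000009087) had 19925 reads in the lymphocyte library, or 604 CPM (596 to 613), and 5623 reads in the myeloid library, or 143 CPM (139 to 146). The thymus level was 4.24-fold the myeloid level (4.12 to 4.37), just past the 4-fold rule, and with library sizes from edgeR's TMM method or DESeq2 it was 2.83-fold and 2.92-fold, short of it. *cd74b* (ENSDARG00000036628) had 12154 reads, or 369 CPM (362 to 375), and 561 reads, or 14.2 CPM (13.1 to 15.4). Its difference of 25.9-fold (23.8 to 28.3) was thus larger than that of *cd74a*.

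The balance between the invariant chain paralogs therefore differed. For each read of *cd74b* there were 1.64 reads of *cd74a* in the lymphocyte library (1.60 to 1.68) and 10.02 in the myeloid library (9.19 to 10.95). The ratio within a library does not depend on library size. The quotient of both ratios, which does not depend on transcript length either, was 6.11, with a counting interval of 5.59 to 6.70.

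*cd40* (ENSDARG00000054968), the receptor through which CD4+ T cells license antigen-presenting cells, was, like *ciita*, without reads in the myeloid library. It had 6921 reads in the lymphocyte library, or 209.9 CPM (205 to 215), and the myeloid level was at least 2760-fold lower. Of the 1057 genes at or above its thymus CPM, 1.51% had 0 myeloid reads and 3.88% had 3 or fewer. *cd83* (ENSDARG00000079553), which in mice protects class II molecules from ubiquitin-driven loss, was read in both libraries. It had 18070 reads, or 548 CPM (540 to 556), in the lymphocyte library and 2304 reads, or 58.4 CPM (56.1 to 60.8), in the myeloid library, a difference of 9.38-fold (8.98 to 9.80).

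By size of the difference in these libraries the genes stood in the order *cd74a*, *cd83*, *cd74b* and *rfx5*, with *ciita* and *cd40* known only as bounds beyond them. The counting intervals of the genes with a ratio did not overlap. Such intervals do not cover PCR copies or the spread between libraries, and *rfx5* had only 27 myeloid reads, so the order was not tested. Over the 7 genes with a read in either library the median log2 of the myeloid level over the thymus level was −4.70, with counts of 3 or fewer set at 3. Over the 24937 genes with reads it was −0.26, which is the ratio of 3 reads in both. Where genes needed 10 reads or more, the medians were −5.07 for 6 of the presentation genes and −1.11 for all 17327 genes.

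*mhc2dab* (ENSDARG00000079105), the only gene of the set that encodes a class II chain and could be matched, was at the limit of detection. It had 1 read in the lymphocyte library and 3 reads in the myeloid library, and no fold is given. Zebrafish carry many class II genes that are near copies of each other and whose number can differ between fish, so all 16 genes whose symbol begins with mhc2 were taken as a group. It was added after the counts had been seen. Reads shared by such copies could be assigned to none or to the wrong one, and 6966482 reads of the lymphocyte library were set aside as not uniquely aligned, a number that the myeloid table does not give. Values of single class II genes are uncertain for this reason. Their sum, and ratios that use it, leave out reads assigned to none of the copies. How many such reads each library lost is not known, and the counting intervals do not cover it.

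Unlike the regulators and the invariant chains, class II chain genes were not lower in the myeloid library as a group. They took 2030 reads in the lymphocyte library, or 61.6 CPM (58.9 to 64.3), and 2440 reads in the myeloid library, or 61.9 CPM (59.4 to 64.4). The myeloid level was 1.005 times the thymus level (0.947 to 1.066), and 1.505 times with TMM library sizes. Of the 16 genes, 3 reached 1 CPM in the lymphocyte library and 6 in the myeloid library, beside 39.8% and 33.0% of all genes. By the 4-fold rule, 3 of 6 compared were higher in the myeloid library, 0 were lower, and 3 were neither, beside 21.9% higher and 39.2% lower among all genes compared.

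Set against the invariant chain, class II chains were relatively more abundant in the myeloid library. There were 6.33 class II chain reads per 100 reads of *cd74a* and *cd74b* in the lymphocyte library and 39.5 in the myeloid library. This ratio was 6.24 times as high in the myeloid library (5.84 to 6.66), whatever the library size. Class II reads assigned to none of the copies are missing from it.

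**Figure D2:**
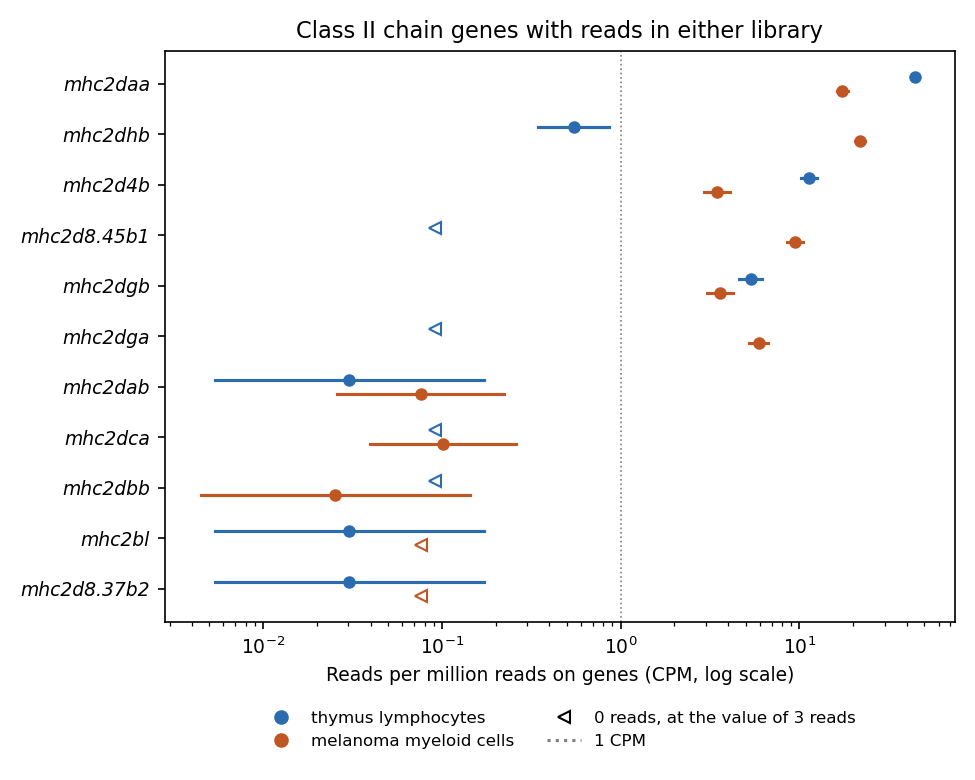
Level of the 11 class II chain genes with reads in either library, in CPM on a log axis, for thymus lymphocytes (blue) and melanoma myeloid cells (orange), with 95% counting intervals as lines and open triangles for 0 reads at the value of 3 reads. *mhc2daa* and *mhc2d4b* lie further right in the lymphocyte library, whereas *mhc2dhb*, *mhc2d8.45b1* and *mhc2dga* lie further right in the myeloid library.

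The libraries drew their class II reads from these genes in different shares. The α chain gene *mhc2daa* (ENSDARG00000031745) made up 71.9% of class II chain reads in the lymphocyte library (Wilson interval 69.9 to 73.8%) and 28.1% in the myeloid library (26.4 to 29.9%). It had 1459 reads, or 44.2 CPM, and 686 reads, or 17.4 CPM. The thymus level was 2.54-fold the myeloid level (2.32 to 2.79), short of the 4-fold rule. The β chain gene *mhc2d4b* (ENSDARG00000101030) ran the same way, at 11.3 CPM and 3.47 CPM, or 3.27-fold (2.68 to 4.001).

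In the myeloid library the β chain gene *mhc2dhb* (ENSDARG00000116524) took the most class II reads, with 863 reads or 35.4% of class II chain reads (33.5 to 37.3%). It was at 21.9 CPM there and at 0.546 CPM in the lymphocyte library, on 18 reads, so that the myeloid level was 40.1-fold the thymus level (25.2 to 68.0). In the RefSeq gene table for GRCz12tu *mhc2dhb* and *mhc2daa* are direct neighbours among protein-coding genes. Their balance differed by far more than counting error: there were 1.23 reads of *mhc2dhb* per 100 reads of *mhc2daa* in the lymphocyte library and 126 in the myeloid library.

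Another pair of neighbours, the α chain gene *mhc2dga* (ENSDARG00000103716) and the β chain gene *mhc2dgb* (ENSDARG00000104635), also parted. *mhc2dgb* had 176 reads in the lymphocyte library and 142 in the myeloid library, or 5.34 and 3.60 CPM. *mhc2dga* had 233 reads, or 5.91 CPM, in the myeloid library and 0 reads in the lymphocyte library, at least 64.9-fold lower. The β chain gene *mhc2d8.45b1* (ENSDARG00000041705) was likewise read in the myeloid library alone, with 371 reads or 9.41 CPM against 0 reads, at least 103-fold lower. Of the 16 genes, 4 had more than 3 reads in both libraries and 9 had 3 reads or fewer in both. In the myeloid library alone 3 passed this count, among them *mhc2dca* with 4 reads, and in the lymphocyte library alone 0 did. The share of all genes by this rule was not computed, so no direction is read from these counts.

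Summed by the chain that their symbols name, the 7 α chain genes had 2.56 reads per read of the 8 β chain genes in the lymphocyte library (2.32 to 2.82) and 0.608 in the myeloid library (0.560 to 0.661). Which haplotypes of the class II genes the fish of either library carried was not analysed here, and its part in these values was not tested.

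Transcripts of the other partners of CIITA at class II promoters, without *rfx5* and *rfxap* given above, were not lower as a group. Of 9 genes for RFXANK, CREB, ATF1 and NF-Y subunits, all at 1 CPM or more in either library, 7 differed by less than 4-fold, 1 was lower and 1 was higher, beside 39.2% lower and 21.9% higher among all genes compared. Their median log2 ratio of myeloid to thymus was −0.09. One gene listed as NFYA (ENSDARG00000001621) was 14.7-fold lower in the myeloid library (9.08 to 25.2), at 6.70 and 0.456 CPM, while its namesake (ENSDARG00000042004) was at 16.5 and 15.5 CPM. The NF-Y subunit gene *nfybb* was 37.5-fold higher in the myeloid library (30.8 to 46.0), at 3.12 and 117 CPM. *atf1*, *creb1a* and the gene listed as NFYB were read in both libraries, at 69.2 and 49.3, 38.5 and 60.3, and 48.8 and 22.2 CPM. With TMM or DESeq2 library sizes 1 more gene, listed as CREB1, was past 4-fold, at 10.3 and 31.6 CPM before that scaling. In the myeloid library *ciita* with 0 reads and *rfx5* with 27 thus stood beside 8 of these 9 partner genes at 1 CPM or more.

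Interferon γ signals through its receptor and the kinases JAK1 and JAK2 to switch on *ciita*. Both interferon γ genes were at or near 0, with 2 reads of *ifng1* in the lymphocyte library and 0 of *ifng1* and *ifng1r* otherwise. Of 12 genes examined on this route, 9 could be compared, of which 5 were lower and 2 higher in the myeloid library. Of all genes compared, 39.2% were lower and 21.9% higher. The median log2 ratio was −0.45 over the 11 genes with reads and −4.18 over the 9 with at least 10 reads in 1 of the libraries, beside −0.26 and −1.11 for all genes.

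The kinases of the route were lower in the myeloid library. *jak1* was at 1550 CPM in the lymphocyte library and 34.9 CPM in the myeloid library, or 44.5-fold lower (42.1 to 46.9). *jak2a* had 10795 reads against 16, or 807-fold (497 to 1412), and the gene listed as JAK2 was at 180 and 5.43 CPM. The receptor gene *ifngr1l* was at 104 and 5.73 CPM, whereas *ifngr1* had 0 reads in the lymphocyte library and 223 in the myeloid library, or 5.65 CPM. *ifngr2*, for the other receptor chain, was at 148 and 271 CPM.

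*irf1b*, a factor that acts on the *ciita* promoter in mammals, was read in both libraries, at 45.0 and 33.0 CPM. *socs1*, a feedback inhibitor of the pathway, was 11.2-fold higher in the myeloid library for the gene listed as SOCS1, and its paralog *socs1b* had 105 reads in the lymphocyte library and 0 in the myeloid library.

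Beside *cd40*, the genes of its ligand and its signalling path were mostly lower in the myeloid library than in the lymphocyte library. Of 10 genes for co-stimulation and CD40 signalling, all could be compared, and 9 were at least 4-fold lower in the myeloid library, beside 39.2% of all genes compared. Their median log2 ratio was −3.53. The symbols *cd80*, *cd86*, *icoslg* and *cd274* matched no gene and were not analysed here, so the list covers the CD40 ligand and signalling genes alone. The ligand gene *cd40lg* had 2791 reads, or 84.6 CPM, in the lymphocyte library and 0 in the myeloid library, at least 1113-fold lower.

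Among the adaptors that bind the tail of CD40, *traf5* had 3683 reads in the lymphocyte library and 4 in the myeloid library, *traf2b* had 5837 and 60, and *traf3* had 5628 and 476. The gene listed as TRAF6 was less far apart, at 480.5 and 66.8 CPM, or 7.19-fold. Of the noncanonical NF-κB path downstream, *map3k14a*, which encodes the kinase NIK, was at 1353 and 144 CPM, or 9.39-fold (9.13 to 9.65). *nfkb2* was at 1475 and 184 CPM, or 8.04-fold (7.84 to 8.24), and its partner *relb* at 1052 and 246 CPM, or 4.28-fold (4.18 to 4.37), which the TMM and DESeq2 scalings bring below 4-fold. The genes listed as TRAF2 ran opposite ways: one (ENSDARG00000030173) had 837 reads among lymphocytes and 1 among myeloid cells, and the other (ENSDARG00000078378), the only gene of the list that was higher in the myeloid library, had 1 and 163.

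The endosomal processing genes, among them those of proteases that cut the invariant chain, ran the opposite way. Of 14 genes, 12 could be compared, of which 7 were at least 4-fold higher in the myeloid library and 0 were lower, beside 21.9% and 39.2% of all genes compared. Their median log2 ratio was 3.30. Which cells of the myeloid pool carried these transcripts was not tested. The asparagine endopeptidase gene *lgmn* was at 43.4 CPM in the lymphocyte library and 2604 CPM in the myeloid library, 60.0-fold higher (56.9 to 63.2). The cathepsin gene *ctsd* was at 247 and 2426 CPM, or 9.83-fold (9.61 to 10.1), and *ctsz* at 29.2 and 355 CPM.

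Of the cathepsin L and K genes, *ctsl.1* and *ctsla* were low in the lymphocyte library, at 2.40 and 1.58 CPM, and *ctsk* was close to absent. *ctsl.1* had 79 reads there and 17090 in the myeloid library, *ctsla* had 52 and 14434, and *ctsk* had 2 and 894. *ctslb* had 0 reads in both libraries. The cathepsin B gene *ctsbb* had 3 and 189 reads. Cathepsin S, which makes the last cut in the invariant chain in mammalian dendritic cells and B cells, was closer between the libraries. *ctss2.1* was at 80.4 and 220 CPM, or 2.73-fold higher in the myeloid library (2.62 to 2.86), and past 4-fold with TMM. *ctss2.2* was at 13.9 and 35.7 CPM. The thiol reductase gene *ifi30a*, whose product opens disulfide bonds of antigens, was at 145 and 134 CPM.

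**Figure D3:**
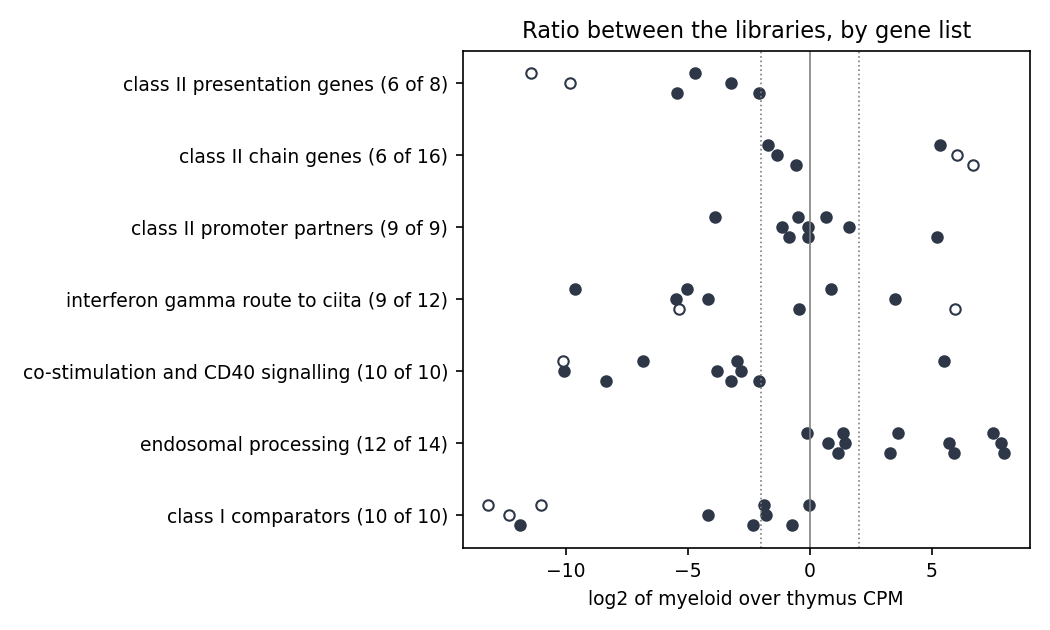
Myeloid level over thymus level (log2 of the CPM ratio, counts of 3 or fewer set at 3) for each gene that could be compared, by list; open points are bounds because one library had 0 reads, dotted lines mark 4-fold, and the numbers give genes compared of genes matched. The presentation genes all lie left of the 4-fold line at −2, class II chain genes and promoter partners lie on both sides of 0, and 7 of 12 endosomal processing genes lie right of the line at 2.

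Markers of the cell types that could bring class II transcripts into a sorted pool were read in both libraries. In the lymphocyte library all 9 T lymphocyte genes were at 1 CPM or more, from 12.98 to 759 CPM, and their sum was 1474 CPM. The phagocyte, B lymphocyte and thymic epithelium genes were mostly below 1 CPM there, whereas 5 of 8 dendritic cell genes reached it. Of 17 genes for mononuclear phagocytes, 0 reached 1 CPM, and they summed to 0.819 CPM, or 27 reads. The gene listed as SPI1 and *csf1ra* had 2 reads each, and *c1qa*, *c1qb* and *c1qc* had 0. 

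B lymphocyte genes summed to 7.43 CPM in the lymphocyte library, mostly from *ighm* at 6.55 CPM. *cd79a* had 5 reads, *cd79b* 13, *pax5* 3, and the 2 genes listed as EBF1 had 1 and 4. Of 6 thymic epithelium genes, which summed to 15.5 CPM, *krt8* alone reached 1 CPM, at 14.7 CPM, while *foxn1* and the gene listed as PSMB11 had 0 reads, *ccl25a* 1 read and *aire* 11. Of 8 dendritic cell genes 5 reached 1 CPM and the list summed to 372 CPM, of which *ccr7*, a receptor that maturing thymocytes also use, gave 285 CPM. The genes listed as ID2, ZBTB46, BATF3 and IRF8 were at 63.4, 18.3, 4.03 and 1.40 CPM there, whereas *flt3* and both genes listed as XCR1 had 0 reads. The levels of *ciita*, *cd74a*, *cd74b* and *cd40* in this library thus stood beside phagocyte markers, *cd79a*, *pax5* and *foxn1* at or near 0, and beside *ighm*, *krt8* and 5 of 8 dendritic cell genes at 1 CPM or more. Which cells of the pool carried them was not tested.

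In the myeloid library 11 of the 17 phagocyte genes were at 1 CPM or more, and the list summed to 1227 CPM. T lymphocyte genes summed to 8.75 CPM, with *lck* and *cd8b* at 0 reads. Of these 9 genes, 3 were at 1 CPM or more in the myeloid library. They were *cd8a* with 163 reads and the genes listed as TCF7 and RAG2 with 83 and 79 reads. Of the dendritic cell genes, *id2a* (listed as ID2), *irf8*, *batf3* and *zbtb46* were at 41.4, 8.85, 6.59 and 3.37 CPM, and *flt3*, the 2 genes listed as XCR1 and *ccr7* had 2, 1, 4 and 0 reads. Of the markers of the labelled cell type, 4 of 8 were thus at 1 CPM or more and the other 4 at or near 0. The absence of *ciita* and *cd40* reads thus came with 11 of 17 phagocyte genes and 4 of 8 dendritic cell genes at 1 CPM or more. It also came with pigment cell genes, given below, at a sum of 24564 CPM. B lymphocyte genes summed to 79.5 CPM, from *blnk* at 44.0, *ighm* at 21.8, *cd22* at 9.15 and *cd79b* at 4.46 CPM, with *cd79a*, *pax5* and both genes listed as EBF1 at 0 reads. Whether B lymphocytes were in this pool was not tested, and neither was a part of theirs in the class II chain reads.

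In the myeloid library the summed level of 10 pigment cell genes was 24564 CPM, with 16778 CPM from 1 of the genes listed as TYRP1 and 0 reads of the gene listed as OCA2. The sum was 1.27 CPM among lymphocytes. Genes of the neutrophil list summed to 216 CPM in the myeloid library and 0.0303 CPM among lymphocytes, with *mpx* unmatched. Most of the myeloid sum came from *mmp13a* at 179 CPM, with *npsn* at 29.2 and *lyz* at 7.55 CPM. Whether neutrophils were in the pool was not tested, and the paper reports no *mpx* expression in its EGFP+ myeloid cells. The myeloid library held the epithelial genes *krt8* and *epcam* at 316 and 28.1 CPM. The part of pigment cell and epithelial RNA in the lower CPM of the presentation genes was not tested. Nor was its part in the higher CPM of the endosomal processing genes. Ratios of reads between genes of the same library do not change with the library size. Among them are those of *cd74a* to *cd74b* and of class II chains to *cd74a* and *cd74b*. Other cells in the pool can add reads of these genes, and their part in these ratios was not tested.

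**Figure D4:**
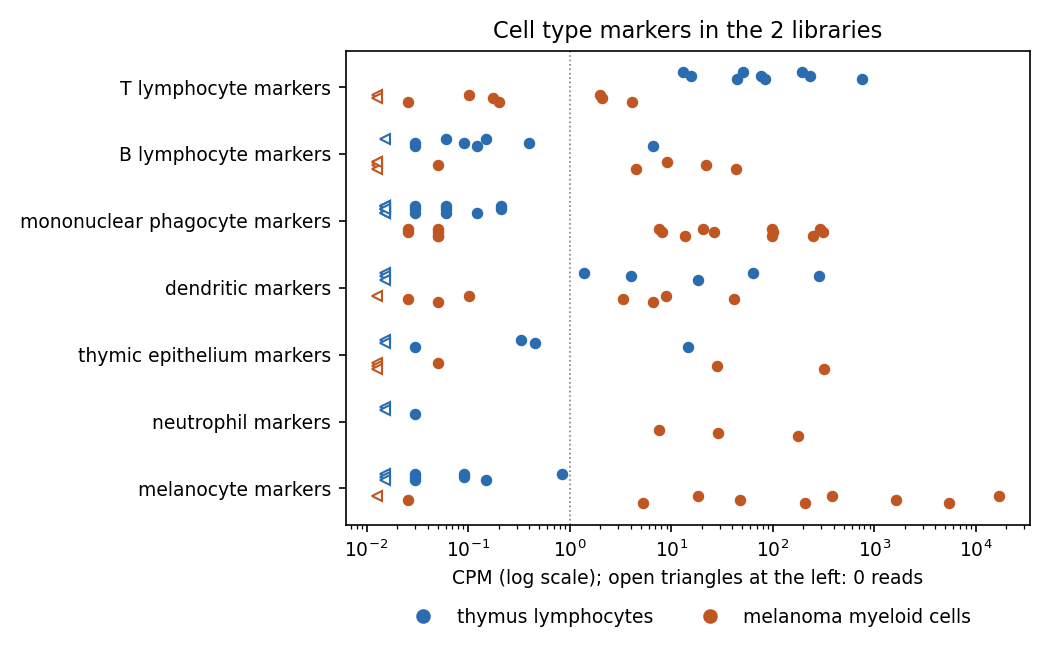
Level of the marker genes of 7 cell types, in CPM on a log axis, in the thymus lymphocytes (blue) and the melanoma myeloid cells (orange); each point is 1 gene, open triangles at the left are genes with 0 reads, and the dotted line marks 1 CPM. All 9 T lymphocyte genes lie above 1 CPM in the lymphocyte library, where 0 of 17 phagocyte genes do, while 11 phagocyte genes and 8 pigment cell genes do so in the myeloid library.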

How the data were processed

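The paper reports that sorted cells were of high purity, which was not checked here. The myeloid library held transcripts of the pigment cell, neutrophil and epithelial marker lists, as given above. The cDNA was amplified by SMART-Seq and tagmented by Nextera XT. The values deposited by the authors are counts of reads on Ensembl genes, with no normalization. The submitters' processing notes name cutadapt, STAR, HTSeq and GRCz11, whereas the paper's methods name TopHat, Cufflinks and GRCz10. Counting options, strand setting and annotation release are not given in the sources used here. Summary rows for reads on no gene, 28.4% of the thymus table, were left out of the library size, and the myeloid table held none.

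Symbols, which 29201 of 32520 gene identifiers had, were matched without regard to case. A capital symbol without paralog letter counted, and otherwise a RefSeq synonym (GRCz12tu) was used. CPM, Wilson intervals of each share and exact conditional intervals of ratios were computed with Python 3.11.15, numpy 2.4.6, pandas 2.3.3 and scipy 1.17.1, checked on simulated data, and figures drawn with matplotlib 3.10.9. Counts of 3 or fewer were set at 3 for calls and medians. Alternatives were thresholds of 0.5 and 5 CPM, folds of 2 and 8, no filter, a pseudocount of 1 CPM, a minimum of 10 reads, and library sizes from edgeR 4.0.16 (TMM), DESeq2 1.42.0, both in R 4.3.3, or without the 10 most read genes. Named genes are all presentation genes, and of each pathway list the genes past 4-fold and the 2 with the highest CPM in each library. The members and lists were chosen with earlier results of these data known. Part of the interferon γ list is not reported here.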

Additional observations from a re-analysis of the deposited data

How the results depend on the processing

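No paired analysis was possible because each group had 1 library, and no replicate could be left out. The order of genes by level per kilobase and the search for promoter motifs were not run, as no transcript lengths or promoter sequences were used here. The count of presentation genes at or above the threshold was 6 in the lymphocyte library under all 5 alternatives, and in the myeloid library 3 under 4 of them and 4 at 0.5 CPM, which *rfx5* passes. The count at least 4-fold lower was 5 with TMM, with DESeq2 and at 8-fold, and 6 otherwise. TMM multiplied each thymus over myeloid ratio by 0.668, a log2 shift of 0.58 towards the myeloid library, DESeq2 by 0.690 and leaving out the 10 genes by 0.947. Under TMM, all genes were called lower in 34.1% and higher in 26.8% of cases. The median log2 ratio of the presentation genes was −4.19 with a pseudocount of 1 CPM and −5.07 over genes with at least 10 reads. That of class II chain genes was −0.26 and changed sign, to 0.036 and 2.38 under the same settings, and it is read as no direction. Of the 11 genes in it, 4 had 3 reads or fewer in both libraries. Depth bounds *ciita* and *cd40* in the myeloid library at 0.0761 CPM, and transcripts lost before sequencing are not covered by that bound.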

Other observations

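MHC class I presentation shows peptides from the cytosol to CD8+ T cells. Of 10 genes of this path, 6 were lower in the myeloid library and 0 were higher, beside 39.2% and 21.9% of all genes compared. With TMM or DESeq2 library sizes 5 were lower, beside 34.1% and 34.5% of all genes. The light chain gene *b2m* was at 612 CPM among lymphocytes and 367 CPM among myeloid cells, and its paralog *b2ml* was at 716 and 208 CPM, both short of 4-fold. The peptide transporter gene *tap2a* had 23411 reads in the lymphocyte library and 0 in the myeloid library, at least 9335-fold lower, and the gene listed as TAP1 had 19255 and 6. The immunoproteasome genes listed as PSMB8 and PSMB9 had 5214 and 13061 reads against 0 for both. *tapbp.1* and *tapbp.2* were 18.0-fold and 5.03-fold lower, whereas PSMB10 was at 82.2 and 79.3 CPM and *tap2t* at 107 and 29.2 CPM. Which haplotypes of the class I presentation genes the fish carried was not analysed here, and its part in these values was not tested. The ubiquitin ligase gene listed as MARCHF8, which in mammals removes class II molecules from the surface, was at 9.83 and 8.87 CPM, and *marchf1* had 0 reads in both libraries.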
